A study of Mus musculus with 4 samples.

Results

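The 10 genes described here encode enzymes that turn cholesterol into bile acids in the liver and join the finished acids to an amino acid. They were taken by name from the array, as every non-control probe whose gene name was Cyp7a1, Cyp7b1, Cyp8b1, Cyp27a1, Cyp39a1, Hsd3b7, Akr1d1, Amacr, Slc27a5 or Baat. The probes were matched by name alone, but the list of genes was chosen with earlier results of these data known. These are 10 of the 37074 gene names on the array and 14 of its 56605 probes, and 4 of the 10 genes have 2 probes. All 14 probes were well above background on all 4 arrays, and none was saturated.

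The study examined the part of Gnmt (glycine N-methyltransferase, a liver enzyme) in the kidney injury caused by aristolochic acid type I (AAI), and its arrays compared AAI with vehicle in livers of both sexes. AAI is a nitrophenanthrene plant toxin that injures the kidney and is metabolised in the liver. C57BL/6 wild-type mice, 6 weeks old per the labels, received AAI or the vehicle, corn oil, by intraperitoneal injection on 5 days a week for 3 weeks. Females received 5 mg/kg/day and males 2 mg/kg/day, so that sex and dose cannot be told apart in any comparison of the treated groups. The 4 groups are thus females and males given AAI and females and males given corn oil (the control pools), and each was measured once, on 1 array of liver RNA pooled in equal amounts from 5 mice. With 1 array per group there is no spread between animals and no test can be made. Ratios are therefore given as values, "rose" and "fell" are written only of a change of at least 2-fold, and that threshold is a size and not a test. The corn oil array of each sex serves both the treatment comparison in that sex and the comparison of the sexes, so these ratios are not independent of each other.

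Bile acids are made in hepatocytes by a classic pathway, which opens with Cyp7a1, and by an alternative pathway, which opens with side-chain oxidation by Cyp27a1 and continues with Cyp7b1. Cyp39a1 hydroxylates further oxysterols. Hsd3b7 and Akr1d1 then remodel the sterol ring, and Cyp8b1 directs intermediates towards cholic acid. Amacr prepares the side chain for its shortening in the peroxisome. Slc27a5 and Baat activate bile acids and conjugate them, mainly with taurine in mice. The pathway is known for feedback through the bile acid receptor Nr1h4 (FXR), for a daily rhythm, and for sex differences in rodent liver.

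Signals are log2 of the processed intensity after quantile normalization, and depend on the probe, so that they are compared between arrays for 1 probe and never between probes. A pair of yardsticks stands beside each ratio. The scanner software's own error of a ratio was between 0.204 and 0.214 (log2) for these probes, and rests on a preset multiplicative error of 10%. The median SD between the ratios of different probes for the same gene, over all genes with several probes, was 0.25 in females, 0.24 in males and 0.23 for the sexes. Neither yardstick measures variation between mice. Hepatocyte markers (Alb, Ttr, Apoa1, Apob, Fgb, Tat) were well above background on every array, 6 of 6, with a summed log2 signal of 20.3 to 20.5, and none of them differed by 2-fold between AAI and corn oil. Quantile normalization gives the brightest probes of each array shared values, and the sum rests mostly on such probes. Alb read 19.15 in the male AAI pool and 19.12 in every other pool. The steady sum therefore cannot show that hepatocyte content was alike. Apob was lower in the female than in the male control pool, with 13.57 against 14.98. Markers of other tissues moved as well. All 5 skeletal muscle markers were at least 2-fold higher in both AAI pools, with summed differences of 5.16 in females and 5.94 in males, and all 5 adrenal cortex markers were at least 2-fold higher in the male AAI pool, with a summed difference of 3.93 against 0.12 in females. Summed brown fat markers were higher by 3.28 and 1.95 in the female and male AAI pools, with 1 of 4 and 3 of 4 markers at least 2-fold higher. In females that sum rested on Cox8b, which rose from 6.02 to 11.49, while Ucp1 was not well above background in either pool and Elovl3 read 7.69 and 6.89 in the control and AAI pools. In males Elovl3 went against the other 3 and fell from 13.58 to 7.87. Its signal was highest in the male control pool, whereas Ucp1, Cidea and Cox8b were highest in the male AAI pool. Summed adrenal medulla markers differed by -0.02 in females, with none changed by 2-fold, and by 2.26 in males, with 3 of 5 at least 2-fold higher. Kupffer cell markers were lower, by 1.09 in females and 0.71 in males on the summed log2 scale, with 4 of 5 and 1 of 5 at least 2-fold lower. Summed cholangiocyte markers differed by 0.10 and 0.09, but Krt19 passed 2-fold in opposite directions. It read 8.12 and 6.91 in the female control and AAI pools, and 6.84 and 8.10 in the male ones. Summed ileum markers differed by -0.23 and -0.72, with none changed by 2-fold. In the female control pool all 5 muscle and all 5 adrenal cortex markers were at least 2-fold lower than in the male one. Of the brown fat markers 3 of 4 were at least 2-fold lower there and none higher. Their summed difference of -5.36 rested mostly on Elovl3, with 7.69 in the female and 13.58 in the male control pool. The part of these tissues in the ratios below was not tested, and in RNA from whole liver fewer cells of a type and less RNA per cell cannot be told apart.

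AAI-treated livers differed from corn oil-treated livers mainly in 2 of the 10 enzymes. Cyp8b1 fell in both sexes, 2.82-fold in females and 6.00-fold in males. Cyp7b1 fell 8.33-fold in males and differed by 0.32 (log2) in the other direction in females. None of the 10 rose by 2-fold in either sex, although 1 (Akr1d1, in males) passed that size when the arrays were centred on hepatocyte markers. In females 1 of 10 fell, beside 3.09% of the 31682 genes measured that were lower by 2-fold or more, 1.37% that were higher and 4.46% that differed either way. In males 2 of 10 fell, beside 4.59% of 30539 genes that were lower by 2-fold or more, 3.51% that were higher and 8.10% that differed either way. The median log2 ratio of the 10 was -0.07 in females, beside 0.04 over all genes, and -0.21 in males, beside 0.00 over all genes. In females 7 of the 10 ratios lay within the median SD between probes, and in males 3 did.

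**Figure D1:**
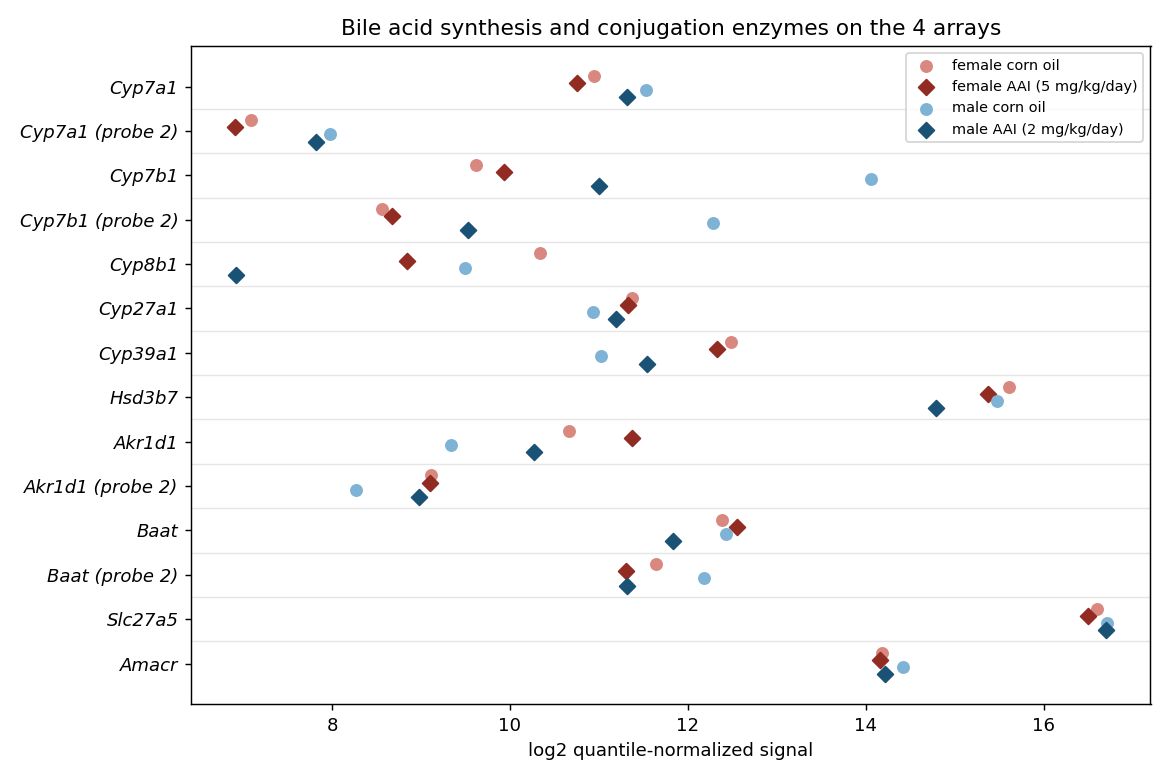
Log2 quantile-normalized signal of each of the 14 probes of the 10 enzymes on the 4 arrays, 1 symbol per array (circles corn oil, diamonds AAI, red females, blue males). The corn oil-treated male pool stands alone at the top for both Cyp7b1 probes, at 14.06 and 12.28, and the AAI-treated male pool stands lowest for Cyp8b1, at 6.91.

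The Cyp8b1 probe, the further Cyp7b1 probe, and 1 probe each of Akr1d1 and Baat, the genes whose probes disagree, are shown so that a reader can see what was measured. Each is the whole 60-base oligonucleotide as the array files give it, 5′ to 3′, and capitals mark all of its bases because all of them hybridise. The positions are those of the files, on mm9. The Cyp8b1 probe lies at chr9:121824595-121824654 on the minus strand and starts at base 769 of NM_010012. The further Cyp7b1 probe spans a splice junction between the ends of chr3:17972720-17996548 on the minus strand. The Akr1d1 probe shown is the one near the start of the transcript, at base 188 of NM_145364 and chr6:37482505-37482564 on the plus strand, and the Baat probe is the brighter one, at base 1243 of NM_007519 and chr4:49502933-49502992 on the minus strand.
Cyp8b1 probe: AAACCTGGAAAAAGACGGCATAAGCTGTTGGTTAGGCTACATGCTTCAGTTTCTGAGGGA
Cyp7b1 further probe: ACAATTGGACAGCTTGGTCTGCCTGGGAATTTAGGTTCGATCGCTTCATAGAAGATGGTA
Akr1d1 probe near the transcript start: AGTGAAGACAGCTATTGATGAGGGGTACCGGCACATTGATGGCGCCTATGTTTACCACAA
Baat brighter probe: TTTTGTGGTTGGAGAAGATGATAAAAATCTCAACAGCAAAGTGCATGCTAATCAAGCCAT

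Cyp7a1, the rate-limiting enzyme of the classic pathway, differed little with AAI. Its brighter probe (NM_007824, chr4:6193456-6193515, minus strand) read 10.95 in the female control pool, 10.76 in the female AAI pool, 11.54 in the male control pool and 11.31 in the male AAI pool. The log2 ratio of AAI over corn oil was -0.19 in females and -0.22 in males, about as large as the scanner error in each sex. The further probe, across a splice junction between the ends of chr4:6200012-6202672, read 7.09, 6.91, 7.98 and 7.82 in the same order, with ratios of -0.18 and -0.16. Both probes thus placed each AAI pool slightly below its control, by less than the median SD between probes of a gene.

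Cyp8b1, whose product sets the share of cholic acid among the bile acids, was the only one of the 10 that fell in both sexes. Its single probe read 10.34 in the female control pool and 8.85 in the female AAI pool, and 9.50 in the male control pool and 6.91 in the male AAI pool. Each AAI pool was below both corn oil pools. The log2 ratio was -1.50 in females and -2.59 in males, where the doses also differed. Counted from the strongest decrease among genes above background on both arrays, Cyp8b1 ranked 199 of 29714 in females and 87 of 28433 in males. Over the other ways of processing the arrays the ratio ran from -1.61 to -1.44 in females and from -2.65 to -2.01 in males, so that it stayed beyond 2-fold in each of them. No second probe of this gene is on the array to set beside it.

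In the alternative pathway, Cyp27a1, the mitochondrial enzyme that oxidises the sterol side chain, read 11.37 and 11.32 in the female control and AAI pools, and 10.93 and 11.20 in the male control and AAI pools (NM_024264, chr1:74782203-74782262, plus strand). Its log2 ratio was -0.05 in females, within both yardsticks, and 0.26 in males, slightly beyond both. The female ratio became 0.28 with another background correction.

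Cyp7b1, the oxysterol hydroxylase that follows Cyp27a1, had the widest range of the 10 over the 4 arrays, 4.45 (log2). Its brighter probe (NM_007825, chr3:17972286-17972345, minus strand) read 9.62 in the female control pool, 9.93 in the female AAI pool, 14.06 in the male control pool and 11.00 in the male AAI pool. The The male control pool was thus far above the other 3 pools, and the male AAI pool lay between it and the females. The log2 ratio with AAI was 0.32 in females and -3.06 in males. The further probe (XM_006535384) read 8.56, 8.67, 12.28 and 9.53 in the same order, with ratios of 0.11 in females and -2.75, a 6.74-fold decrease, in males. The male decrease of the brighter probe ranked 48 of 28433. The female value lay outside the error of a ratio with the brighter probe and inside it with the further one.

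Cyp39a1, which hydroxylates oxysterols that carry a side-chain hydroxyl group, read 12.48 in the female control pool, 12.32 in the female AAI pool, 11.02 in the male control pool and 11.54 in the male AAI pool (NM_018887, chr17:43887735-43887794, plus strand). Both female pools were above both male pools. With AAI the log2 ratio was -0.16 in females and 0.52 in males, the latter beyond the median SD between probes but under 2-fold.

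**Figure D2:**
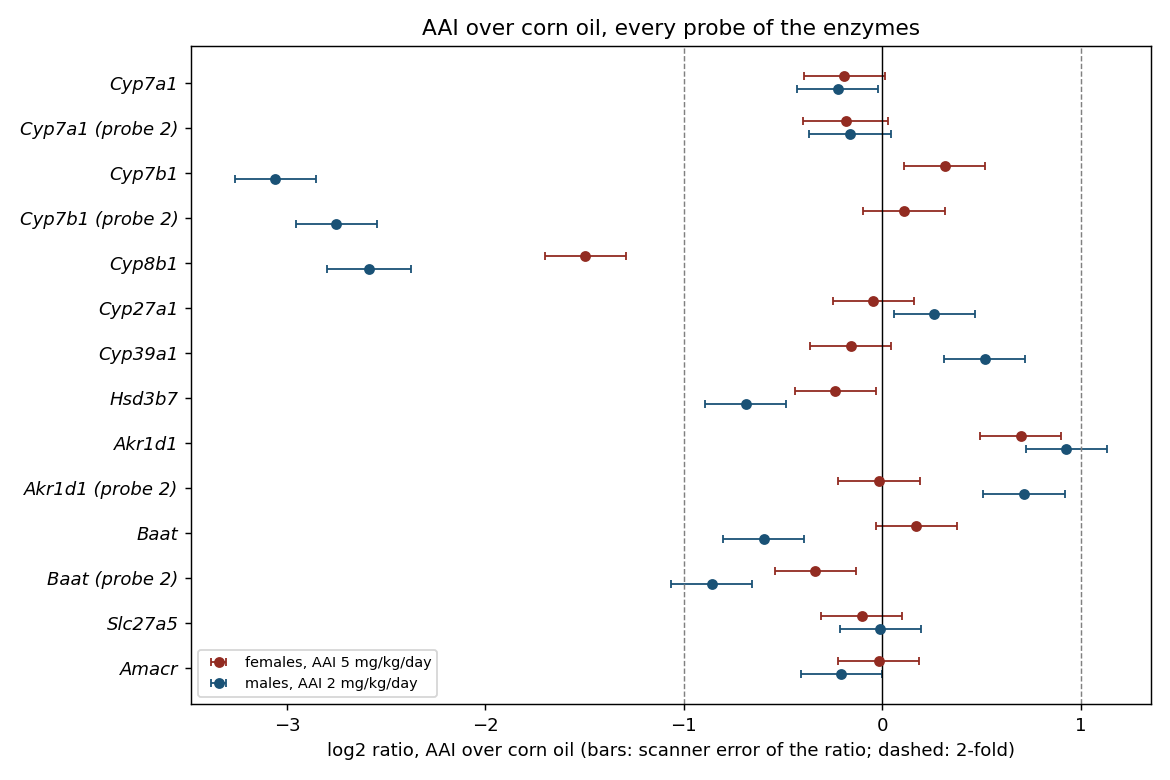
Log2 ratio of AAI over corn oil for every probe of the enzymes, females in red and males in blue; bars are the scanner error of the ratio, not a spread between mice, and dashed lines mark 2-fold. Cyp8b1 lies beyond 2-fold in both sexes (-1.50 and -2.59), both Cyp7b1 probes lie beyond it in males (-3.06 and -2.75), and all other points lie within it.

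Among the enzymes that remodel the ring, Hsd3b7, the dehydrogenase that acts after the first hydroxylation, read 15.61 and 15.38 in the female control and AAI pools and 15.47 and 14.79 in the male control and AAI pools (NM_133943, chr7:134947251-134947310, plus strand). The AAI-treated male pool was the lowest of the 4. The ratios were -0.24 in females and -0.69 in males, 1.61-fold lower and short of 2-fold.

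Akr1d1, the reductase that saturates the ring after Hsd3b7, was higher in both AAI pools with its brighter probe (chr6:37517836-37517895, plus strand), which read 10.67 and 11.37 in the female control and AAI pools and 9.34 and 10.26 in the male control and AAI pools. These are log2 ratios of 0.70 and 0.93, or 1.62-fold and 1.90-fold, neither of which reached 2-fold; centred on hepatocyte markers, the male ratio was 1.08. The probe near the transcript start read 9.11, 9.10, 8.27 and 8.98 for the female control pool, the female AAI pool, the male control pool and the male AAI pool. With that probe the male ratio was 0.72 and the female ratio -0.02, so the 2 probes gave similar values in males and not in females. The cause of the difference between the probes was not tested.

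Of the side-chain and conjugation enzymes, Amacr, the racemase of the side chain, read 14.18 and 14.16 in females and 14.42 and 14.22 in males, corn oil before AAI (NM_008537, chr15:10925139-10925198, plus strand). Slc27a5, the ligase that activates bile acids with coenzyme A, read 16.60 and 16.50 in females and 16.71 and 16.70 in males (NM_009512, chr7:13573701-13573760, minus strand). The log2 ratios of Amacr were -0.02 and -0.21 and those of Slc27a5 were -0.10 and -0.01, all at or within the error of a ratio.

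Baat, which transfers the activated acid to taurine or glycine, read 12.38 and 12.56 in the female control and AAI pools and 12.43 and 11.83 in the male control and AAI pools with the probe shown above. The further probe (chr4:49502399-49502458, minus strand) read 11.64, 11.31, 12.18 and 11.32 for the same pools. In males the 2 probes gave log2 ratios of -0.60 and -0.86, both on the lower side and under 2-fold. In females they gave 0.17 and -0.34, with opposite signs, so no direction can be given there. Over the 3 comparisons, the 2 probes of a gene had ratios of the same sign in 10 of 12 cases, and the exceptions were Akr1d1 and Baat in females given AAI.

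A further question was how the enzymes differ between the sexes without AAI. Cyp39a1 and Akr1d1 were higher in the female control pool than in the male control pool, 2.75-fold and 2.52-fold, and Cyp7b1 was 21.8-fold lower. The log2 ratios of female over male were 1.46 for Cyp39a1, 1.33 for Akr1d1 and -4.45 for Cyp7b1. These are 2 of 10 higher and 1 of 10 lower by 2-fold or more, beside 1.86% of 30891 genes that were higher, 3.83% that were lower and 5.69% that differed either way. The median over the 10 was 0.04, beside 0.03 over all genes. Cyp7b1 ranked 8 of 29111 among the strongest differences towards males, and its further probe gave a ratio of -3.72, or 13.2-fold. The Akr1d1 probe near the transcript start gave 0.85, short of 2-fold.

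Cyp8b1 had a ratio of 0.84 towards females (1.79-fold), and Cyp27a1 one of 0.43. Cyp7a1 lay towards males with both probes, at -0.59 and -0.89. The brighter Baat probe gave -0.05 and the further one -0.54. Hsd3b7 and Slc27a5 had ratios of 0.14 and -0.11, within both yardsticks, and Amacr had -0.24, slightly beyond both.

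In the AAI pools the sexes also differed in dose, and the ratios are set side by side without a comparison. Female over male, Cyp7b1 had a log2 ratio of -4.45 in the corn oil pools and -1.07 in the AAI pools. Cyp39a1 had 1.46 and 0.78, Akr1d1 1.33 and 1.1, and Cyp8b1 0.84 and 1.93. Hsd3b7 had 0.14 and 0.59, and Baat -0.05 and 0.72 with its brighter probe and -0.54 and -0.01 with the further one. Cyp7a1 had -0.59 and -0.56, Cyp27a1 0.43 and 0.13, Slc27a5 -0.11 and -0.21, and Amacr -0.24 and -0.06.

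**Figure D3:**
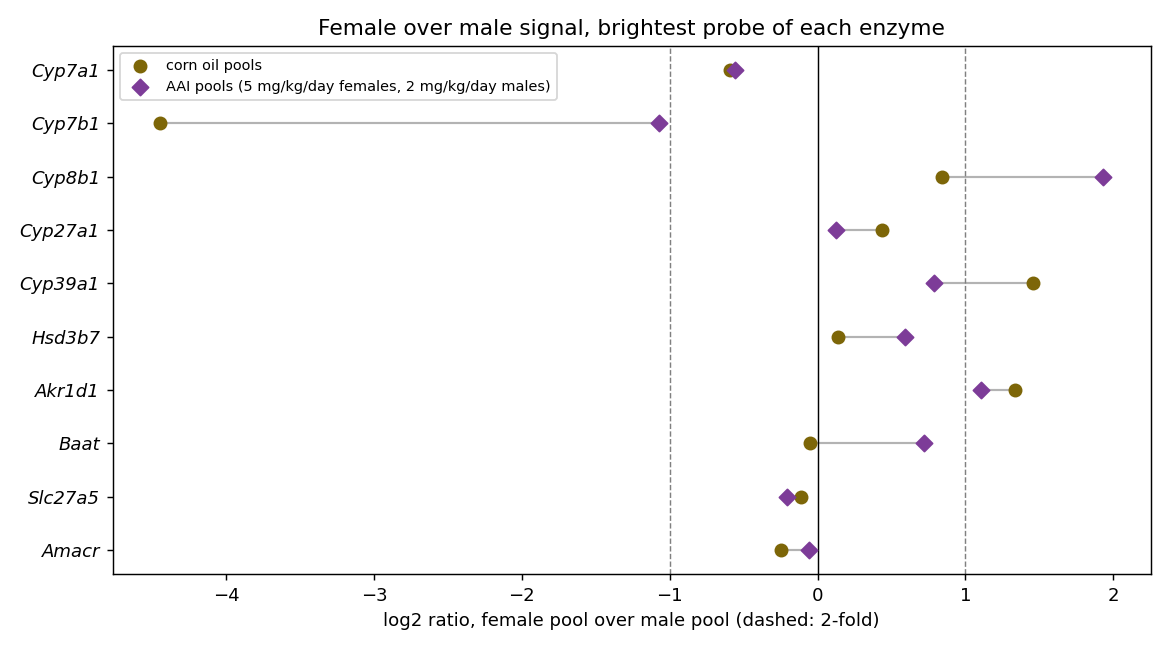
Log2 ratio of the female over the male pool for the brightest probe of each enzyme, in corn oil pools (circles) and in AAI pools (diamonds, in which the doses differ), with dashed lines at 2-fold. The grey line of Cyp7b1 is the longest, from -4.45 to -1.07, and that of Cyp8b1 runs from 0.84 to 1.93.

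**Figure D4:**
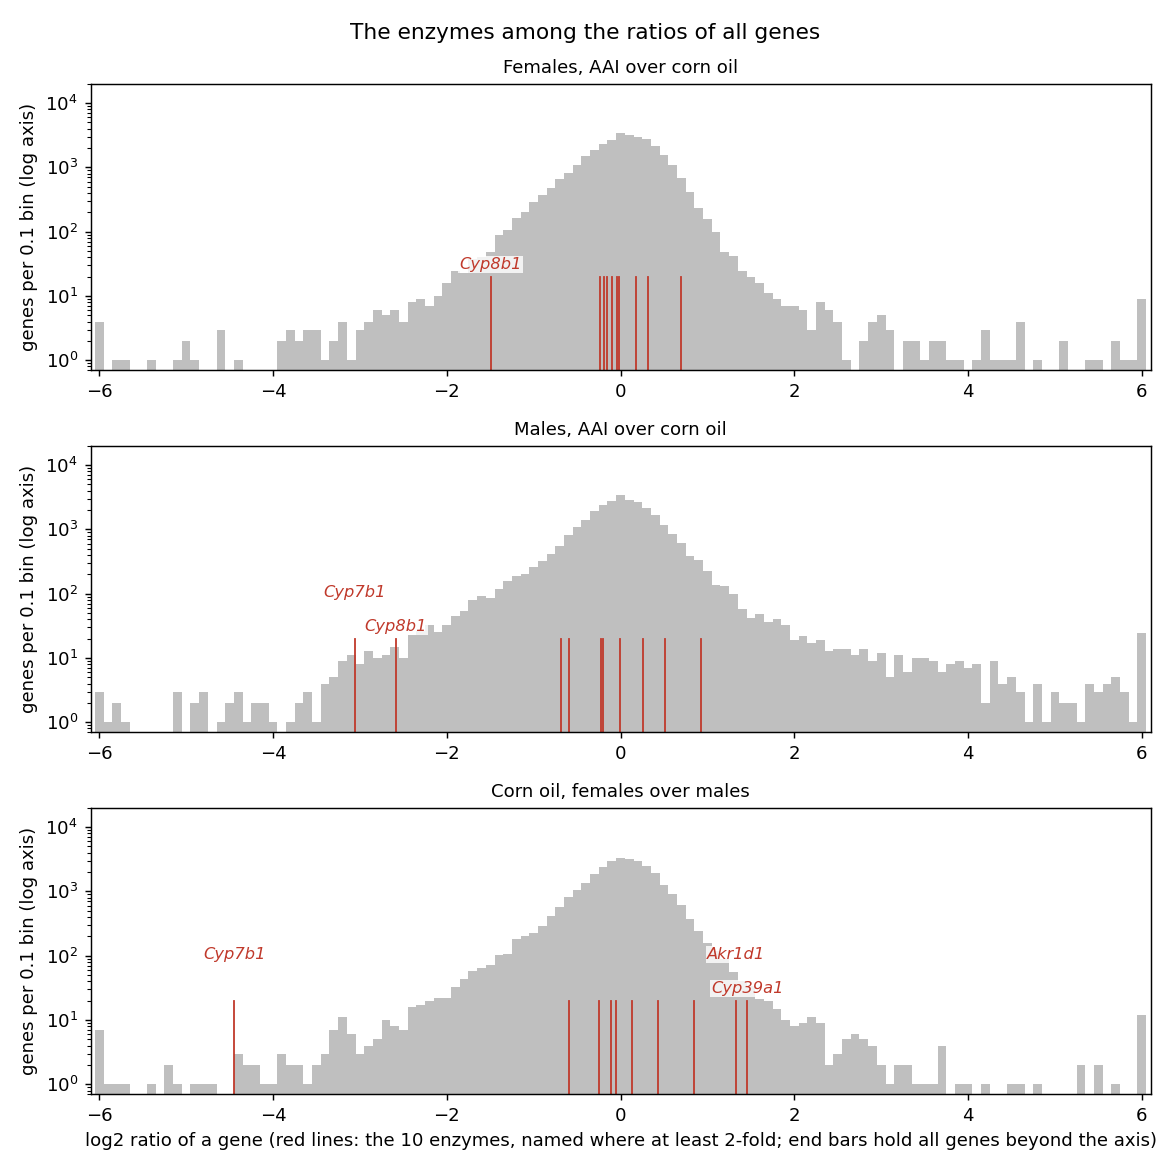
Number of genes (log axis) in each 0.1 bin of log2 ratio for the 3 comparisons, with the 10 enzymes as red lines; the end bars hold all genes beyond -6 or 6. Cyp7b1 and Cyp8b1 lie in the lower tail in males, Cyp8b1 in the lower tail in females, and Cyp7b1 far from the bulk in the comparison of the sexes.

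The sequences before the transcription start are shown for Cyp8b1, the enzyme that fell in both sexes, and for Akr1d1, whose brighter probe was higher in both AAI pools. RefSeq promoter sequences on GRCm38.p6 were matched by symbol for 4 of the 10 genes (Cyp8b1, Cyp27a1, Hsd3b7 and Akr1d1). Each sequence runs 5′ to 3′ along the gene's strand over the 250 bases before the start. A set of 4 short motifs was searched on both strands. AGGTCA is read by many nuclear receptors, and TCAAGG is a form of the core of the Nr5a2 site. TTCNNNGAA is read by STAT5, and TTANGTAA by Dbp and Nfil3. AGGTCA and TCAAGG can overlap each other. They occurred in 14.0%, 12.5%, 7.02% and 2.06% of 32851 promoters of the same length. The Cyp8b1 sequence, chr9:121916306-121916555 on the minus strand, holds none of the 4 motifs as written, so none of its bases is in capitals. It does hold ccaagg, which differs from TCAAGG in its first base. Variants of the motifs were not searched. The Akr1d1 sequence, chr6:37529923-37530172 on the plus strand, holds AGGTCA at 2 places, read as TGACCT from bases -232 and -210, and TCAAGG read as CCTTGA from base -213, which overlaps the latter; capitals mark them. A match is a description of these letters and not a site.
Cyp8b1 promoter: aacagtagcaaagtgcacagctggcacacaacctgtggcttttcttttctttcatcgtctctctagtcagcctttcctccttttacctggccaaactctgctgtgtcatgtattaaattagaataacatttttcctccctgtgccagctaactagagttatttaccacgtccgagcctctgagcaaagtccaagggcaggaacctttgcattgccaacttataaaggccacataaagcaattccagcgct
Akr1d1 promoter: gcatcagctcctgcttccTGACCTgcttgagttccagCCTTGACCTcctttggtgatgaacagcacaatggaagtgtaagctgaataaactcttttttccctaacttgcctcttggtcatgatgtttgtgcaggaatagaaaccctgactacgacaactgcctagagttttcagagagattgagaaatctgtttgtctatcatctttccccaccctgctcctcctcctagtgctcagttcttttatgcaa
The Hsd3b7 sequence held TTCNNNGAA once, read as TTCCTGGAA from base -21, and the Cyp27a1 sequence held none of the 4 motifs.

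The other genes of the pathway were described from 3 lists of 14 further enzymes, 17 regulators and 14 transporters. Among the 14 further enzymes, none changed by 2-fold in females, and in males Cyp46a1, the cholesterol hydroxylase best known from brain, fell 2.21-fold (a log2 ratio of -1.14, and -0.99, under 2-fold, when centred on hepatocyte markers) while Fdxr, the reductase that supplies electrons to mitochondrial P450 enzymes, rose 2.35-fold. Fdxr read 10.25, 10.57, 10.19 and 11.43 in the female control pool, the female AAI pool, the male control pool and the male AAI pool. Its signal was highest on the array where the markers of the adrenal cortex, a tissue rich in such P450 enzymes, were highest as well. Fdx1, of the same list, had ratios of -0.13 in females and 0.12 in males with its brighter probe. Its further probe gave -0.05 and 0.17. The part of adrenal tissue in these ratios was not tested. The median log2 ratio of the 14 was 0.08 in females and -0.36 in males, beside 0.04 and 0.00 over all genes. Cyp2c70, which makes muricholic acids in mice, had ratios of 0.40 and 0.45. Of the peroxisomal enzymes and transporters of this list, Abcd3, Slc27a2 and Hsd17b4 had ratios of -0.96, -0.86 and -0.83 in males and of 0.10, -0.12 and 0.06 in females, none reaching 2-fold, although Abcd3 in males reached -1.09 at the lower end of the alternatives. Between the corn oil pools 12 of the 14 had a ratio below 0 (median -0.29), beside 14622 of 30891 over all genes (median 0.03), and Slc27a2 just reached the 2-fold threshold, with 15.14 in females and 16.14 in males.

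Of the 17 regulators, Nr1d1 and Dbp rose and Nr1i2 fell in females, and Ppargc1a rose and Nfil3 fell in males. The medians were -0.09 in females and -0.17 in males, beside 0.04 and 0.00 over all genes. The feedback components stayed under 2-fold with AAI. Nr1h4, the bile acid receptor, had ratios of -0.04 and -0.31 in females and males, and Nr0b2 (SHP), the repressor that Nr1h4 induces, had 0.32 and -0.13. Nr5a2 (LRH-1), an activator of Cyp7a1 and Cyp8b1, had 0.23 and -0.17, Fgfr4, the receptor of the ileal hormone Fgf15, had -0.33 and 0.10, and its coreceptor Klb had 0.23 and 0.04. One of the further Fgfr4 probes gave 0.31 and -0.06, and the other -0.31 and 0.25. The further Nr1h4 probe gave -0.12 and 0.09, and the further Klb probe 0.03 and 0.25.

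The clock-linked genes of the list were among those that changed. Nr1d1, a repressor of the clock, read 4.61 in the female control pool, 10.01 in the female AAI pool, 7.90 in the male control pool and 8.49 in the male AAI pool, a rise of 42.2-fold in females, or 5.40 on the log2 scale, and a ratio of 0.58 in males. The female value was 3.28 (log2) with the normexp background correction. It rests on a single probe whose female control signal was well above background but dim. On that array Chgb, at 4.16, was not well above background. Dbp, a clock output activator, read 10.07, 11.09, 13.29 and 14.02, with ratios of 1.02 in females and 0.73 in males and, with its further probe, 0.47 and 0.75. Its female ratio ran from 0.74 to 1.03 over the alternatives and so did not stay past 2-fold. Nfil3, which binds the same motif as Dbp, had ratios of -0.77 and -1.23. Between the corn oil pools Nr1d1 and Dbp had ratios of -3.29 and -3.22, female over male. Bile acid enzymes are known to follow the clock, the hour at which the livers were taken is not given in the sources used here, and the part of sampling time in the ratios of the 10 enzymes was not tested. Nr1i2, the xenobiotic receptor PXR, had ratios of -1.22 and -0.28, and Ppargc1a, a coactivator of fasting genes, had -0.90 and 1.29 with its brighter probe and -1.23 and 1.75 with the further one.

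Among the 14 transporters, Slc51b, a subunit of the basolateral bile acid exporter, rose 2.83-fold in females, and Slco1a1, a sinusoidal uptake carrier, fell 4.79-fold in females and 54.8-fold in males. Slco1a1 read 8.60, 6.34, 12.49 and 6.71 in the female control pool, the female AAI pool, the male control pool and the male AAI pool. Its signal was highest in the male control pool and far lower in the male AAI pool, as for Cyp7b1. With normexp its log2 ratios were -1.49 in females and -4.87 in males. Its further probe was not well above background in the female AAI pool, was at least 19.6-fold lower there than in the female control pool, and fell 231-fold in males. Slc51b read 9.04, 10.54, 7.37 and 7.81. Slc10a1 (NTCP), the main uptake carrier of conjugated bile acids, had ratios of -0.10 and 0.03, and Abcb11 (BSEP), the canalicular bile salt pump, had 0.57 and -0.88. The medians of the list were 0.32 in females and 0.06 in males, beside 0.04 and 0.00 over all genes. Between the corn oil pools Slco1a1 was 14.9-fold lower in females, and Slc51b and Slco1a4 were 3.19-fold and 2.75-fold higher.

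**Figure D5:**
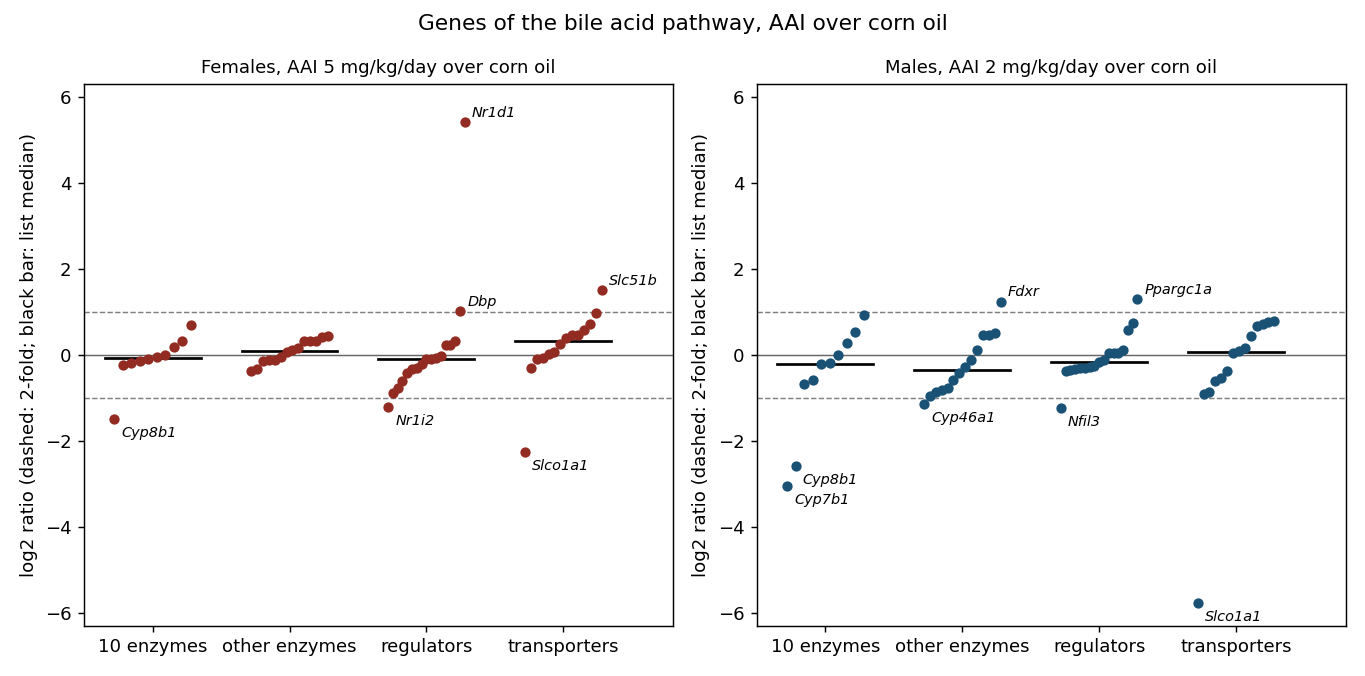
Log2 ratio of AAI over corn oil for the 10 enzymes and the 3 further lists in females (left) and males (right), 1 point per gene by its brightest probe, with genes beyond 2-fold named and black bars at the list medians. Most points lie between the dashed 2-fold lines in both sexes. The farthest are Nr1d1 in females (5.40, from a dim control signal) and Slco1a1 in males (-5.78).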

How the data were processed

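Liver RNA of 4 groups of mice, pooled from 5 animals per group, was hybridised to 4 one-colour Agilent SurePrint G3 arrays on 1 slide. The authors scanned the arrays with Feature Extraction 10.5.1.1 and deposited, per spot, linear intensity values that are background-subtracted and, on 3 of 4 arrays, corrected for a multiplicative trend, and a table with quantile-normalized intensity, used here only as an alternative. Precision is limited by the number of arrays, 1 per group.

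Control and outlier spots were left out, the spots of a probe averaged, and log2 values of the deposited processed intensity quantile normalized over the 4 arrays for 56495 probes. A gene stands for its brightest probe and enters a comparison if that probe is well above background on at least 1 of 2 arrays. Genes at least 2-fold higher or lower were counted. A probe dim on 1 array gives a bound. Calculations used Python 3.11.15, pandas 2.3.3, numpy 2.4.6 and, for normexp, limma 3.58.1 in R 4.3.3, and were tested on simulated data.

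The members and gene lists were chosen with earlier results of these data known. All 10 enzymes with all probes are named; of the other pathway genes, those at least 2-fold changed with AAI in either sex, and always Nr1h4, Nr0b2, Nr5a2, Fgfr4, Klb, Cyp2c70, Slc10a1 and Abcb11. Further names in the text (Abcd3, Slc27a2, Hsd17b4, Fdx1, Slco1a4, Ucp1, Cidea, Cox8b, Elovl3, Krt19, Apob) were chosen after their values were seen. For Cyp7b1 and Cyp8b1, which had the widest range of signal, the 3 genes with the nearest profile are given. Alternatives were scaling to the 75th percentile, normexp with an offset of 50, the signal without the multiplicative correction, the deposited normalized table, the mean of all probes of a gene, spots at the background value left out, no filter, thresholds of 1.5-fold and 3-fold, and centring on hepatocyte markers, which was chosen after seeing the data. Coordinates are those of the array files (mm9). Promoter sequences are RefSeq's on GRCm38.p6; the builds were not mixed.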

Additional observations from a re-analysis of the deposited data

Results flagged for a closer look

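Cyp7b1, Cyp39a1, Cyp27a1 and Baat had log2 ratios of AAI over corn oil with opposite signs in the sexes. With 1 array per group the difference was not tested, and the doses differed. The share of all genes with opposite signs was not counted. Over all genes, 16937 of 31682 ratios in females and 15367 of 30539 in males were above 0. The female values of Cyp39a1, Cyp27a1 and the brighter Baat probe were smaller than the scanner error of a ratio. Cyp7b1 had 0.32 in females and -3.06 in males. Cyp39a1 had -0.16 and 0.52. Cyp27a1 had -0.045 and 0.26, and the female value changed sign under other background corrections. Baat had 0.17 and -0.60 with its brighter probe, and its further probe had a negative ratio in both sexes, -0.34 and -0.86.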

How the results depend on the processing

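No paired analysis was possible because each group has 1 array. The 30 ratios of the enzymes (10 genes, 3 comparisons) were recomputed under 7 alternatives. Of these 210 values 10 moved by more than the median SD between probes, and none of the ratios beyond 2-fold changed sign. Many of the 210 could not move by that much. No probe of the enzymes lay at a spot with the background value, so leaving such spots out changed none of the ratios. Centring on hepatocyte markers shifted every ratio by less than that SD. For the 6 enzymes with 1 probe, the mean of all probes is that probe. Ratios near 0 changed sign under some alternative in 6 cases: Cyp27a1, Baat and Amacr in females, Slc27a5 in males, and Baat and Slc27a5 between the sexes. The Cyp27a1 ratio in females became 0.28 with normexp and 0.29 without the multiplicative correction, and the Akr1d1 ratio in females became 0.34 as the mean of its probes. Among the other pathway genes, Slco1a1 became -1.49 in females and -4.87 in males with normexp, and -6.81 in males as the mean of its probes, and Cyp46a1 became -0.99 in males when centred on hepatocyte markers. The cause of these shifts was not tested.

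Counts of enzymes moved with the threshold. At 1.5-fold, females had 1 higher (Akr1d1), males had 1 higher (Akr1d1) and 4 lower, and between the sexes 2 were lower. At 3-fold, females had 0 lower, and between the sexes 0 were higher. Centred on hepatocyte markers, whose median log2 ratios of 0.06 in females, -0.15 in males and 0.06 between the sexes were subtracted from every gene, males had 1 higher (Akr1d1, at 1.08).

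Counts over all genes moved more. With normexp they were 139 higher and 343 lower in females, 554 and 643 in males, and 225 and 475 between the sexes. Without the filter they were 1078 higher in females, 1793 higher and 2240 lower in males, and 1253 and 1823 between the sexes. At 1.5-fold they were 2473 and 3152, 3022 and 3360, and 2455 and 3090 in the same order, and at 3-fold 127 and 225, 471 and 510, and 155 and 378. The mean of all probes gave 379 higher between the sexes. Among changed genes in females 69.3% were lower by quantile normalization (434 higher, 978 lower), and 54.5% (623 and 745) by scaling to the 75th percentile. In males 56.7% were lower (1071 and 1402), and 41.9% (1508 and 1086) when centred on hepatocyte markers. A single array per group, unequal doses and signal from other tissues limit every ratio, and dim probes give unstable folds.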

Other observations

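Over 28224 genes well above background on all 4 arrays, the profiles nearest to Cyp7b1 by Euclidean distance of centred log2 signals were those of Gm4956 (0.68), Cyp2d34 (0.76) and Nat8 (0.89). Gm4956 had log2 ratios of -0.53 in females and -3.17 in males, Cyp2d34 of 1.06 and -2.37, and Nat8 of 0.56 and -1.84. Nearest to Cyp8b1 were Nipal3 (0.66), Hbb-b1 (0.83) and Hbb-bt (0.84), the latter pair being beta-globin genes of red blood cells, whose near-identical transcripts a probe may not separate. Nipal3 had ratios of -0.83 and -2.22, Hbb-b1 of -0.70 and -1.79, and Hbb-bt of -0.43 and -2.37. These distances rest on 4 arrays and are a description only.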
